A study of Homo sapiens with 6 samples.

Results

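The genes described here belong to families, or work with proteins, that write, erase or read methyl groups on histones and DNA. Not every member is known to do so itself, JMJD8, SETD3 and JMJD6 among them. They were taken as all genes whose symbol belongs to the families of lysine demethylases (KDM), lysine methyltransferases (KMT, SETD, SETDB, SUV39H, EHMT, NSD, EZH, DOT1L, PRDM, SMYD), chromobox proteins (CBX), JmjC-domain proteins (JMJD, PHF2, PHF8, HR), DNA methyltransferases (DNMT), TET dioxygenases and methyl-CpG-binding domain proteins (MBD), with ATRX, DAXX, TRIM28 and MPHOSPH8 added. The KDM4 genes and UTY were left out. This choice rested on names and not on measured values, and it held 78 of the 14884 genes named on the array. The 78 genes had 87 probe sets, and each gene was read from its brightest one on average.

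The cells were BE(2)-C_tetoff_KDM4C, which descend from BE(2)-C, an established line of human neuroblastoma, and carry a tet-off construct for KDM4C. Total RNA was measured on 6 Affymetrix expression arrays, 3 of cells kept without doxycycline (construct on) and 3 of cells kept with doxycycline (construct off), all at 6 days and in medium with dialyzed serum. Both groups carry the construct, and no array of cells without it was analysed here, so induction of KDM4C and withdrawal of doxycycline cannot be told apart. Whether the derivative is 1 clone is not given in the sources used here.

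KDM4C, the demethylase of methylated lysine 9 of histone H3 that the construct supplies, was at 8.97, 9.08 and 9.02 without doxycycline, against 7.71, 7.77 and 7.80 with it (log2 expression values of the 3 arrays each). This gave a difference of 1.27 on the log2 scale, taken throughout as no doxycycline minus doxycycline (SE 0.07, limma adjusted p = 0.00788), which is the direction of the labels. The size of the KDM4C difference was 1.24 to 1.29 with any 1 array left out, and the limma adjusted p then 0.0311 to 0.0696. Arrays of 1 group correlated at 0.991 to 0.993 across all 53617 probe sets, and arrays of different groups at 0.990 to 0.991. The 9 measured markers of noradrenergic neuroblastoma had group means between 8.98 and 12.3. Their log2 differences ran from -0.40 (CHGA) to 0.34 (TH), with 0 called by limma. At an unadjusted limma p below 0.05, 2 of them were higher and 3 lower, beside 7.57% and 6.87% of all named genes. The 3 endothelial markers lay between 2.85 and 3.12, below the median probe set at 3.94. Markers of other cell types lay on both sides of that median: group means were 3.35 to 5.75 for the 2 measured immune markers of 5 (TYROBP the dimmer, CD68 the brighter), 3.28 to 7.55 for 4 epithelial markers of 5 (KRT18 the brightest), and 3.81 to 5.84 for 2 Schwann cell markers of 4 (S100B the brighter). LUM, which encodes the matrix proteoglycan lumican and was the 1 measured fibroblast marker of 5 listed, was bright, at 11.01, 11.09 and 11.07 without doxycycline, against 11.35, 11.40 and 11.32 with it, with a log2 difference of -0.30 (limma adjusted p = 0.139). The part of these signals in the results below was not tested, and in bulk RNA fewer cells of a type and less RNA per cell cannot be told apart.

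Methyl groups on histone lysines are placed by SET-domain enzymes and taken off by flavin-dependent enzymes (KDM1A and KDM1B) or by JmjC-domain dioxygenases, which consume 2-oxoglutarate. Methylation of lysine 9 of histone H3 (H3K9) is bound by HP1 proteins and marks silent heterochromatin, that of lysine 27 (H3K27) is the mark of Polycomb repression, and that of lysines 4 and 36 (H3K4, H3K36) goes with active promoters and gene bodies. DNA methylation on CpG sites is copied by DNMT1, set anew by DNMT3A and DNMT3B, oxidised by TET enzymes and read by some MBD proteins. The comparison asks whether 6 days with the KDM4C construct on went along with a change in the transcripts of this machinery.

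Of the 78 genes, 1 rose and 0 fell at a limma adjusted p below 0.05, with p-values adjusted over all 53617 probe sets. Among all named genes 0.43% were called higher and 0.134% lower by the same rule. The gene that rose was JMJD8. At an unadjusted limma p below 0.05, 9 members were higher and 4 lower, 11.5% and 5.13% of the members, against 7.57% and 6.87% of all named genes. In total 16.7% of the members met this rule in either direction and 14.4% of all named genes did, shares that lie near each other. The groups did not overlap for 14 higher and 13 lower members, 17.9% and 16.7%, against 12.1% and 12.5% of all named genes. Together these were 27 members, or 34.6%, beside 24.6% of all named genes.

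Most differences were small. Values of single arrays are log2 expression, and every value called a difference, or by which a gene differed, is a log2 difference. The median log2 difference of the members was 0.05 and that of all named genes -0.002. With 1 array left out the median of the members lay between 0.01 and 0.04, nearest to 0 without no-doxycycline replicate 2. For 75 of the 78 members the 95% confidence interval of the difference lay wholly within 1.5-fold in either direction (0.585 on the log2 scale), 96.2% of them, beside 92.9% of all named genes. The 3 exceptions were JMJD8, PRDM8 and PRDM7. Of the 78, 9 had a mean below the median probe set, namely 7 of the PRDM family, SMYD1 and KDM5D, and dim probe sets report changes poorly. KDM5D is Y-linked, so it was counted and its values are not given.

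**Figure D1:**
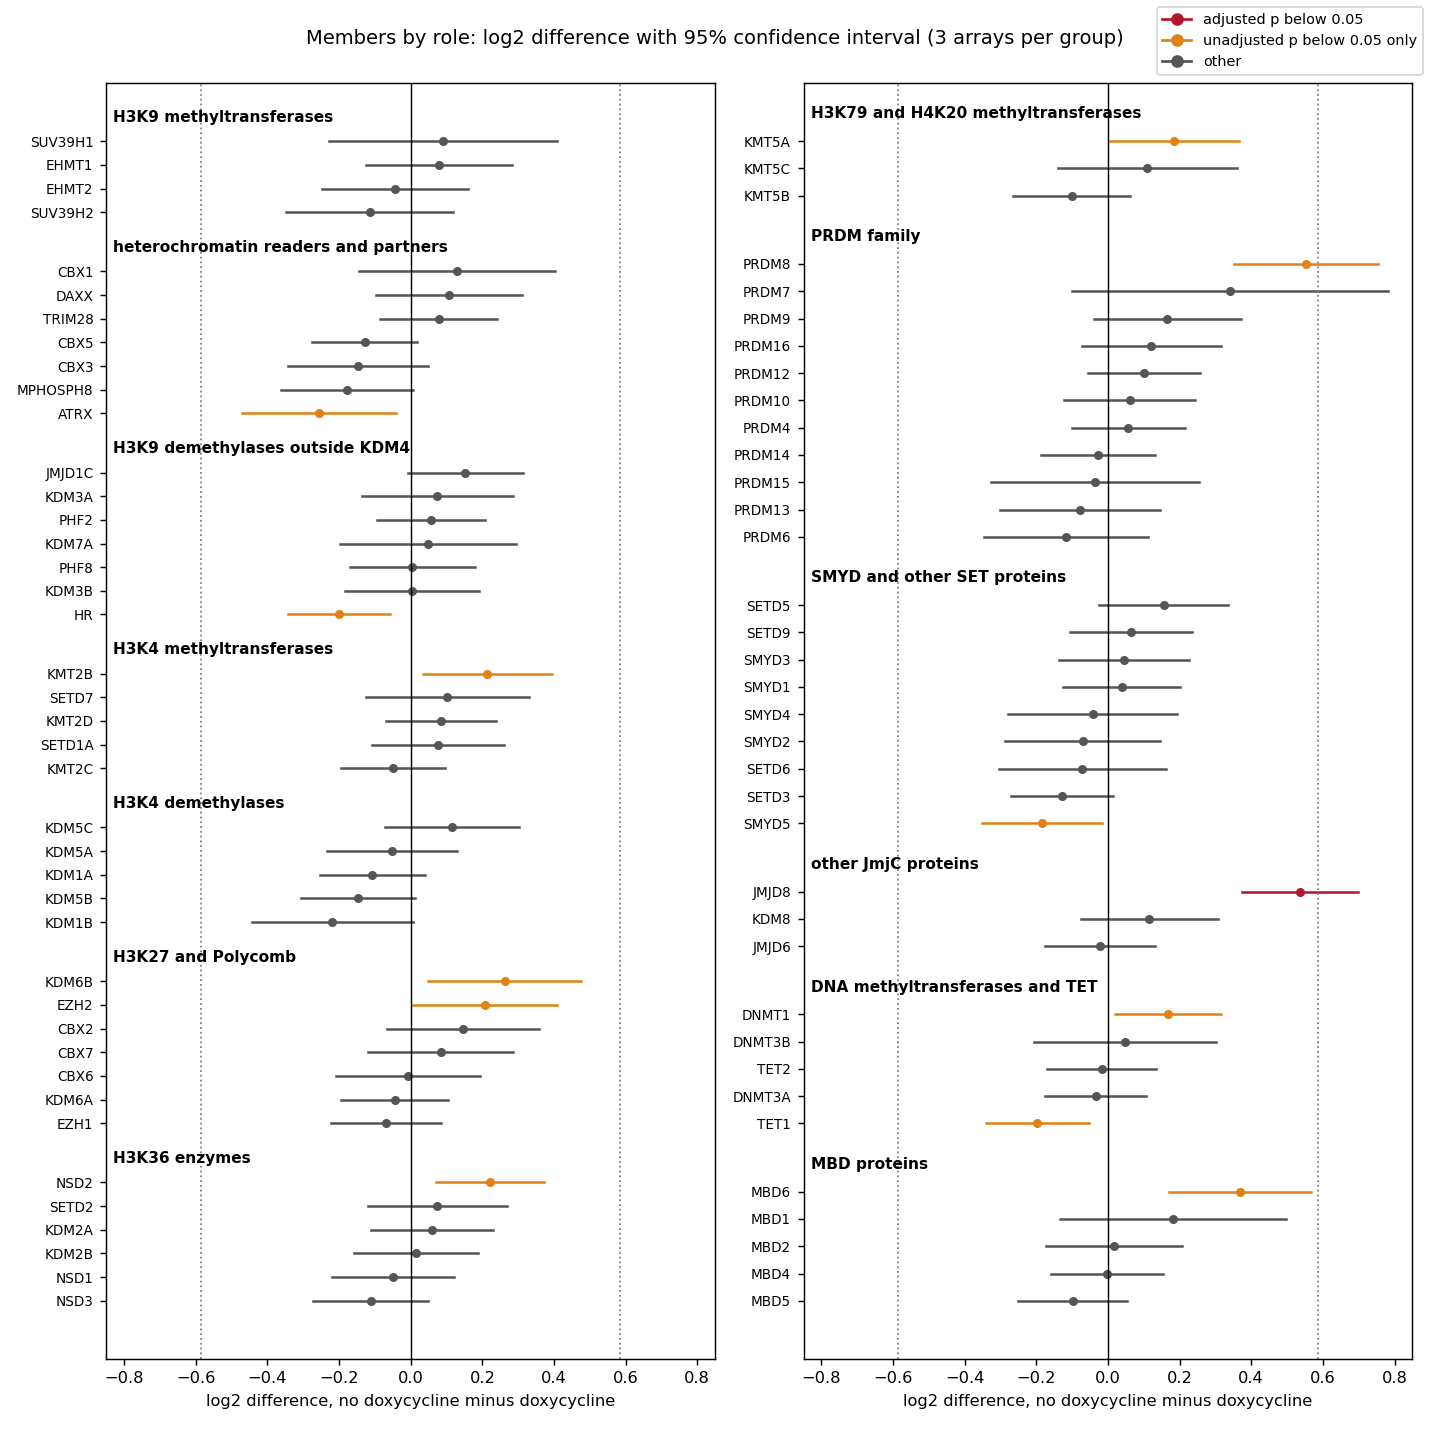
Log2 difference (x axis, no doxycycline minus doxycycline) of every member except KDM5D, grouped by role, with bars for the 95% confidence interval from 3 arrays per group. Dotted lines mark 1.5-fold, and the JMJD8 interval, the 1 in red, runs from 0.38 to 0.70, while the intervals of 13 members in all leave out 0.

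**Figure D2:**
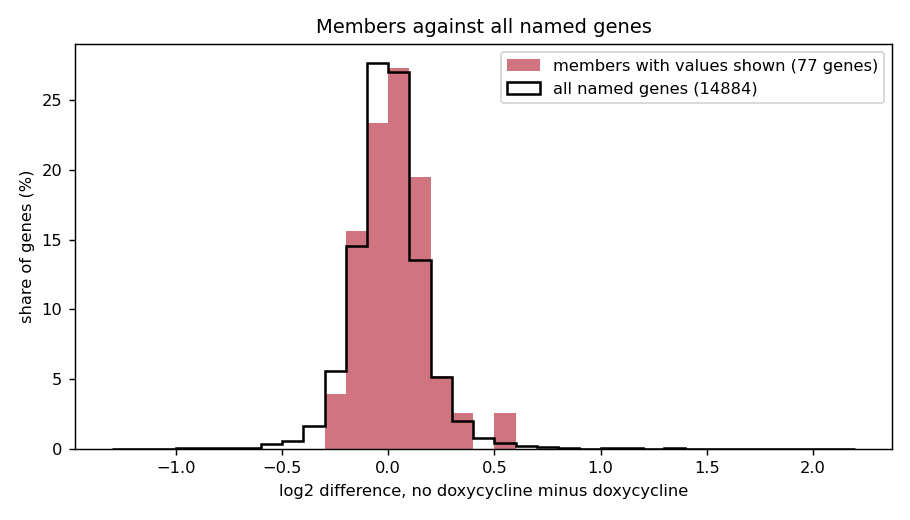
Share of genes (y axis, percent) in bins of the log2 difference (x axis) for every member except KDM5D, filled, and for all 14884 named genes, outlined. Both distributions centre near 0, and the rightmost bin of the members holds JMJD8 and PRDM8.

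JMJD8, a JmjC-domain protein known from the lumen of the endoplasmic reticulum and not established as a histone demethylase, stood at 8.69, 8.76 and 8.70 without doxycycline, against 8.24, 8.10 and 8.20 with it (log2 expression values). Every array without doxycycline lay above every array with it, and the gap between the groups was several times the spread within them. The means were 8.72 ± 0.04 without doxycycline and 8.18 ± 0.07 with it (SD, n = 3 each), 1.45-fold higher without doxycycline, with a log2 difference of 0.54 (SE 0.07, 95% confidence interval 0.38 to 0.70, limma adjusted p = 0.0449). The size of the difference stayed between 0.50 and 0.57 with any 1 array left out, but the limma adjusted p then lay between 0.139 and 0.172. The call was thus lost with any 1 array left out, and the cause of this was not tested.

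PRDM8, a PR-domain zinc finger repressor known from neural development, had the largest difference among the members. Its values were 5.54, 5.36 and 5.46 without doxycycline, against 4.82, 5.02 and 4.85 with it, groups that did not overlap. The log2 difference was 0.55 (SE 0.08, 1.47-fold) and the limma adjusted p 0.0663, just outside the threshold. The limma adjusted p was 0.0495 in a fit without dim probe sets and 0.0408 when the same p-values were adjusted over named genes alone. It was 0.0871 with trend and robust moderation, 0.233 with the replicate number as a block and 0.127 to 0.211 with 1 array left out.

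MBD6, a protein with a methyl-CpG-binding fold that is known as a partner of the histone H2A deubiquitinase BAP1, came next by p-value. It read 6.59, 6.46 and 6.43 without doxycycline, against 6.17, 6.00 and 6.20 with it, again without overlap, and its log2 difference of 0.37 (SE 0.08) had a limma adjusted p of 0.163. The next-largest difference, 0.34, was that of PRDM7, described below.

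**Figure D3:**
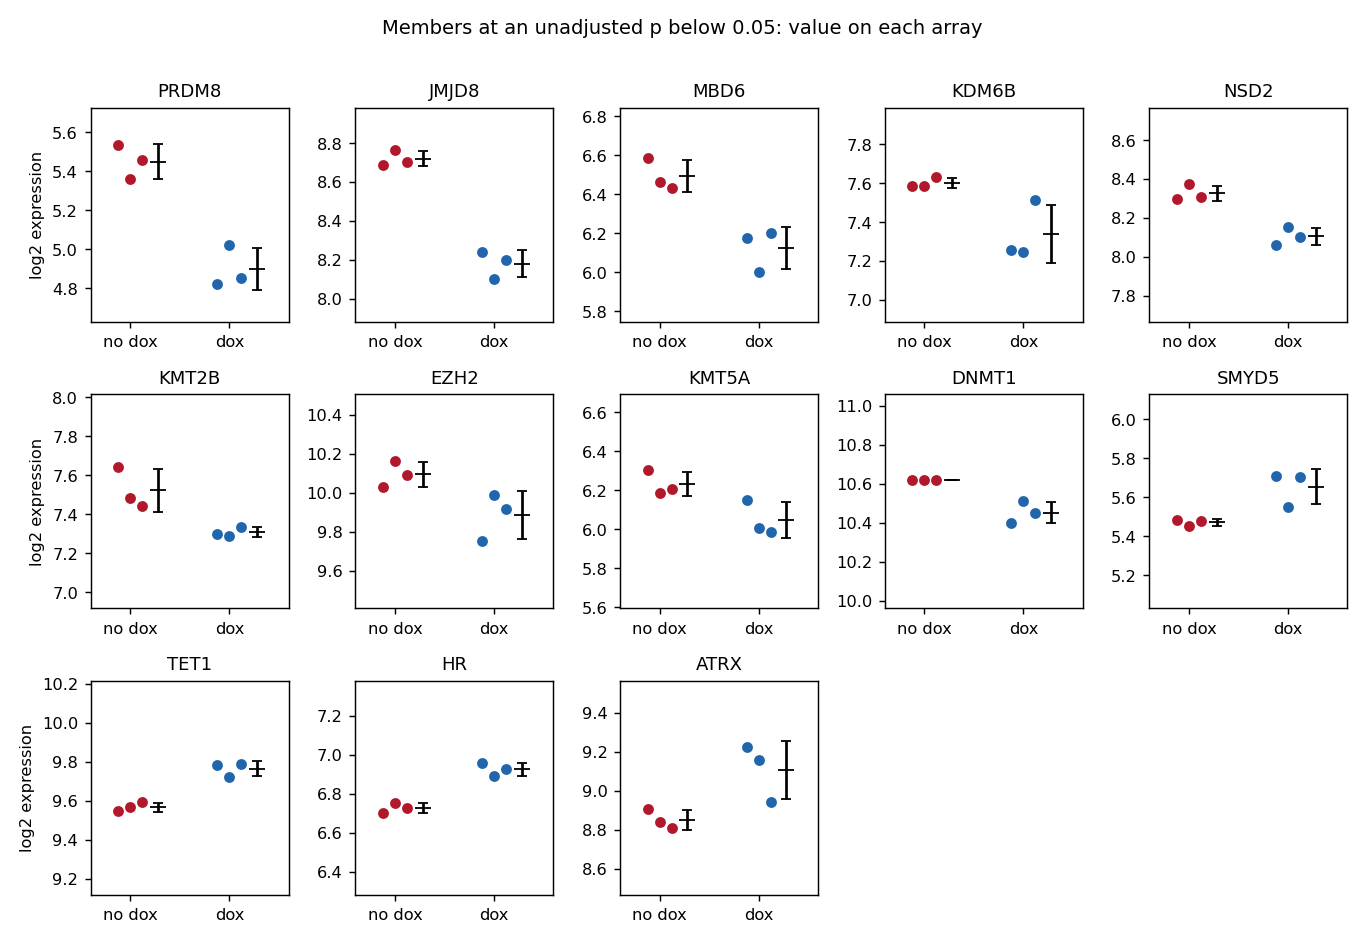
Log2 expression (y axis, the same span of 1.1 in every panel) on each array for the 13 members at an unadjusted limma p below 0.05, without doxycycline at the left and with it at the right; black marks are means with SD of 3 arrays. The groups do not overlap in any of the 13 panels, and the gap is widest for PRDM8 and JMJD8.

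The promoters of JMJD8, of PRDM8 and of EZH2, NSD2 and KMT5A, cell-cycle related members described below, are shown because they belong to the higher members whose upstream sequence holds a CCAAT box, the motif bound by the factor NF-Y. They are the 250 bases before a RefSeq gene start (GRCh38.p14), with CCAAT or its reverse complement ATTGG in capitals. The positions are chr16:684335-684584, minus strand for JMJD8, chr4:80197253-80197502, plus strand for PRDM8, chr7:148884292-148884541, minus strand for EZH2, chr4:1871143-1871392, plus strand for NSD2 and chr12:123383882-123384131, plus strand for KMT5A.
JMJD8: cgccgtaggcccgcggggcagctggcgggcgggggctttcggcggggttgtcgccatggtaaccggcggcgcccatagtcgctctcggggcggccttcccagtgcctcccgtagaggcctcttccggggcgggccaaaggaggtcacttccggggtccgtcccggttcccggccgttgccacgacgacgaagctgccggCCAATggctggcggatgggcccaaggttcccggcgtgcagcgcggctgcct
PRDM8: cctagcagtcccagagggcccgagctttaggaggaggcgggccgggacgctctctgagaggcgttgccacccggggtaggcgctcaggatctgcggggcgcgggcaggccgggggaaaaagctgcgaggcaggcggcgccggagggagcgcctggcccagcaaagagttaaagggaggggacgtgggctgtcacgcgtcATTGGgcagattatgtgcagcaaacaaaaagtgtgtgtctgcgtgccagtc
EZH2: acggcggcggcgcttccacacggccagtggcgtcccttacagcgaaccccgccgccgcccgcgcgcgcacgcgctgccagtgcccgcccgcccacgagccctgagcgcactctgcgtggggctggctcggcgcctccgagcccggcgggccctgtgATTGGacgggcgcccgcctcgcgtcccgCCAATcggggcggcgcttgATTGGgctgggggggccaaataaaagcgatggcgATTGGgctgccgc
NSD2: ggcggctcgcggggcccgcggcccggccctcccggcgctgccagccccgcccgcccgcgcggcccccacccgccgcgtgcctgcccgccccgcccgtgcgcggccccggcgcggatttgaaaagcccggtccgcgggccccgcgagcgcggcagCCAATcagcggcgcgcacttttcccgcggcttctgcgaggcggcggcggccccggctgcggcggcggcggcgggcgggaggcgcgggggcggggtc
KMT5A: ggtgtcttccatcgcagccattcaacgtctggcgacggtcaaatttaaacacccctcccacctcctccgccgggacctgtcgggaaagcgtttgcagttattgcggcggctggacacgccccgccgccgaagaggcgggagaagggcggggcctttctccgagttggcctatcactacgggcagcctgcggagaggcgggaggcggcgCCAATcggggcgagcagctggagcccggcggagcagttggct
JMJD8, NSD2 and KMT5A each held 1 CCAAT, PRDM8 held 1 ATTGG, and EZH2 held 1 CCAAT and 3 ATTGG. In JMJD8 and PRDM8 the last base of the match lay 47 bases before the start. The RefSeq table lists another start for EZH2, PRDM8 and KMT5A, and the 250 bases before those held neither word. The higher members MBD6, KDM6B, KMT2B and DNMT1, also at an unadjusted limma p below 0.05, held neither word in any window. Of the lower members by that rule, TET1 held both words before some of its starts and SMYD5 held neither. Windows of HR and ATRX, also lower by that rule, are not described here, so higher and lower members are not compared in full.

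The table matched 68 of the 78 members, with 107 starts. Of these 107 upstream windows 33.6% held CCAAT or ATTGG, against 32% of all 35116 windows of the same length, shares near each other. The E2F-type words TTTCCCGC, TTTCGCGC, TTTGGCGC and TTTGCCGC, on either strand, were found in 4.67% of the member windows (5 genes: EZH1, JMJD1C, KDM1B, NSD2 and PRDM7) and in 2.79% of all windows. The word TGATGNAA, bound by ATF4 with its partners, was in 0 of the 107 windows and in 3.14% of all windows. The probe sets do not tell which start was used, and the words were searched with the expression values known.

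The enzymes that place H3K9 methylation, the mark that KDM4C removes, showed no called change. SUV39H1 and SUV39H2 write the trimethyl form and EHMT1 and EHMT2 the dimethyl form. SUV39H1 was at 5.98, 6.26 and 6.35 without doxycycline, against 5.98, 6.03 and 6.32 with it, and SUV39H2 at 8.55, 8.73 and 8.78 without doxycycline, against 8.68, 8.93 and 8.80 with it. In both genes the groups overlapped, with log2 differences of 0.09 and -0.11 and 95% confidence intervals of -0.23 to 0.41 and -0.35 to 0.12. EHMT1 stood at 7.80, 7.70 and 7.79 without doxycycline, against 7.74, 7.78 and 7.54 with it. EHMT2 stood at 7.16, 7.36 and 7.18 without doxycycline, against 7.22, 7.23 and 7.39 with it. The differences of these partners were 0.08 and -0.04, with intervals of -0.12 to 0.28 and -0.25 to 0.16, so an increase or decrease of 1.5-fold lies outside the interval of each of these 4 genes. The dimmer probe set of SUV39H1 gave -0.04, with the sign turned. SETDB1 and SETDB2 were not analysed here.

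Among the readers and keepers of heterochromatin, 4 of 7 had negative and 3 positive differences, with a median of -0.13 and 0 past the adjusted threshold (by unadjusted limma p, 0 were higher and 1 was lower). The HP1 proteins bind methylated H3K9 through their chromodomain. CBX5 (HP1 alpha) read 9.86, 9.89 and 9.87 without doxycycline, against 9.95, 10.02 and 10.04 with it, and the groups did not overlap. CBX3 (HP1 gamma) read 9.08, 9.23 and 9.24 without doxycycline, against 9.24, 9.43 and 9.33 with it, and the groups overlapped by a narrow margin. CBX1 (HP1 beta) read 7.16, 7.30 and 7.11 without doxycycline, against 7.10, 7.23 and 6.84 with it, with wide overlap. The log2 differences of CBX5, CBX3 and CBX1 were -0.13 (SE 0.06), -0.15 (SE 0.08) and 0.13 (SE 0.11), none of them called (limma adjusted p = 0.463, 0.528 and 0.707). With 1 array left out, the difference ran from 0.02 to 0.22 for CBX1 and from -0.19 to -0.09 for CBX3.

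ATRX, a chromatin remodeller that deposits histone H3.3 at heterochromatin together with DAXX, had the most negative difference of all members. It was at 8.91, 8.84 and 8.81 without doxycycline, against 9.22, 9.16 and 8.94 with it, and the lowest array with doxycycline lay just above the highest without it. This left a difference of -0.26 (SE 0.09, unadjusted p = 0.0259, limma adjusted p = 0.321). MPHOSPH8, the H3K9 methylation reader of the HUSH silencing complex, was at 7.07, 7.01 and 7.23 without doxycycline, against 7.29, 7.26 and 7.29 with it, without overlap, at a log2 difference of -0.18 (limma adjusted p = 0.421). DAXX had a positive difference, at 5.05, 4.99 and 5.22 without doxycycline, against 5.03, 4.90 and 5.01 with it and a log2 difference of 0.11 (95% confidence interval -0.10 to 0.31). Its 4 dimmer probe sets gave 0.05 to 0.07, and 2 of them hold the same values on every array. TRIM28, the corepressor of zinc finger proteins, differed by 0.08 (95% confidence interval -0.09 to 0.24).

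**Figure D4:**
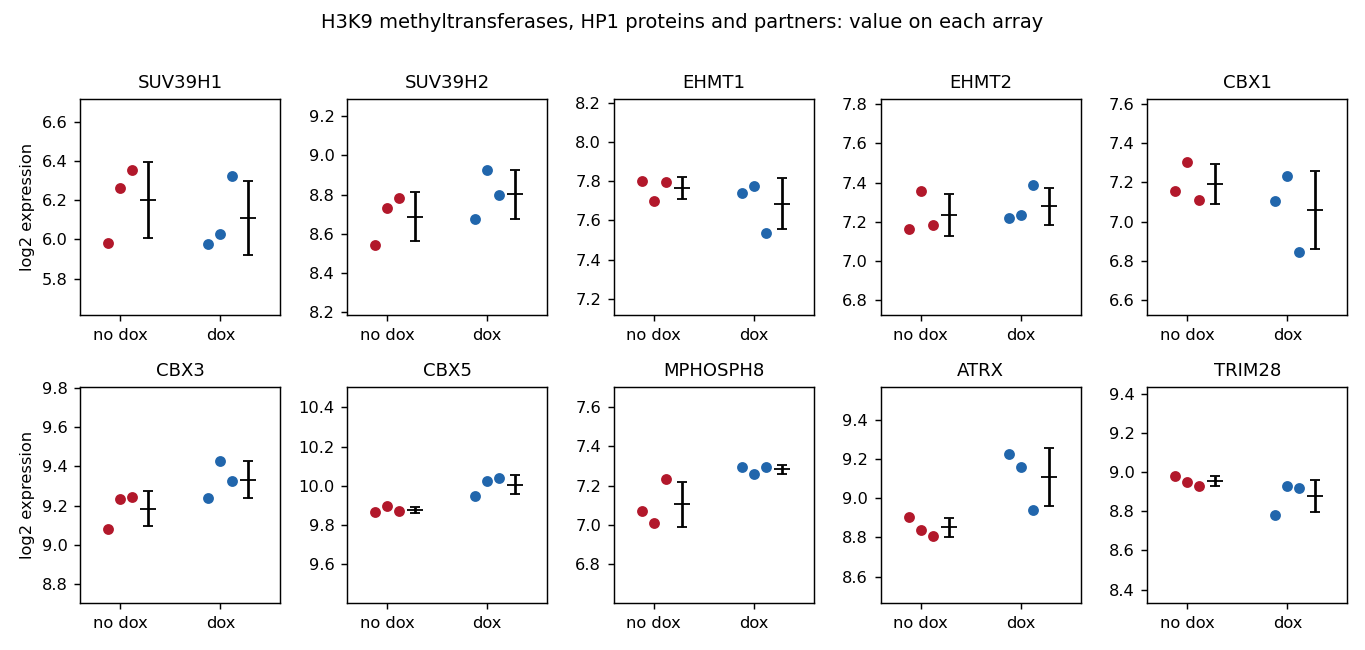
Log2 expression (y axis, the same span of 1.1 in every panel) on each array for 4 H3K9 methyltransferases, the HP1 genes CBX1, CBX3 and CBX5, and MPHOSPH8, ATRX and TRIM28, without doxycycline at the left and with it at the right; black marks are means with SD of 3 arrays. The groups lie apart in CBX5, MPHOSPH8 and ATRX, all lower without doxycycline, and by a narrow margin in TRIM28, and they overlap in the others.

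The H3K9 demethylases other than KDM4 had 6 positive and 1 negative difference, with a median of 0.05 and 0 called (by unadjusted limma p, 0 were higher and 1 was lower). HR, a JmjC corepressor of nuclear receptors known from hair follicles, was the lower one, at 6.70, 6.75 and 6.73 without doxycycline, against 6.96, 6.89 and 6.93 with it, with groups well apart at a log2 difference of -0.20 (SE 0.06, limma adjusted p = 0.261). JMJD1C, a relative of KDM3A, was at 8.79, 8.82 and 8.75 without doxycycline, against 8.70, 8.64 and 8.56 with it, without overlap, and its log2 difference was 0.15 (SE 0.07, limma adjusted p = 0.426). KDM3A and KDM3B, which remove mono- and dimethylation, differed by 0.07 (-0.14 to 0.29) and 0.0044 (-0.18 to 0.19), where brackets hold the 95% confidence interval of the log2 difference. PHF2, PHF8 and KDM7A, which pair a PHD finger with a JmjC domain, differed by 0.06 (-0.09 to 0.21), 0.005 (-0.17 to 0.18) and 0.05 (-0.20 to 0.29). KDM3B and PHF8 thus sat closest to 0 of the list.

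On H3K4, 4 of 5 measured methyltransferases had positive and 4 of 6 demethylases negative differences, with medians of 0.09 and -0.08. No gene of either list was called by limma, and at an unadjusted p below 0.05 the methyltransferases had 1 higher and 0 lower and the demethylases 0 and 0. KMT2B, a catalytic subunit of a COMPASS-type complex, was that 1, at 7.64, 7.48 and 7.44 without doxycycline, against 7.30, 7.29 and 7.34 with it and a log2 difference of 0.21 (SE 0.08, limma adjusted p = 0.324). KMT2C, a related enzyme that acts at enhancers, was at 10.50, 10.45 and 10.48 without doxycycline, against 10.52, 10.56 and 10.49 with it, overlapping groups with a log2 difference of -0.05. KMT2D, SETD1A and SETD7 differed by 0.09, 0.08 and 0.10.

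Of the erasers, KDM1B was at 6.45, 6.62 and 6.62 without doxycycline, against 6.94, 6.71 and 6.68 with it, and its log2 difference of -0.22 (SE 0.09) had a limma adjusted p of 0.418. KDM5B stood at 8.67, 8.59 and 8.67 without doxycycline, against 8.84, 8.81 and 8.73 with it, with a log2 difference of -0.15 (SE 0.07). In both genes the groups did not overlap, yet neither difference was called. KDM1A (LSD1), the founding lysine demethylase, which is bright in these cells, was at 9.97 ± 0.04 without doxycycline and 10.08 ± 0.04 with it (SD, n = 3 each), with a log2 difference of -0.11 and a 95% confidence interval of -0.25 to 0.04. KDM5C had a positive difference, at 6.09, 6.04 and 6.08 without doxycycline, against 6.05, 5.83 and 6.00 with it, with overlapping groups and a log2 difference of 0.12. KDM5A differed by -0.05 (-0.24 to 0.13).

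In the H3K27 and Polycomb list both a writer and an eraser were higher at an unadjusted p below 0.05, and 0 of 7 genes were called (by unadjusted limma p, 2 were higher and 0 lower, median log2 difference 0.08). KDM6B, a JmjC demethylase of H3K27 known as an inducible gene, was at 7.58, 7.58 and 7.63 without doxycycline, against 7.26, 7.24 and 7.51 with it. Doxycycline replicate 3 lay near the other group, while the 3 arrays without doxycycline hardly differed. EZH2, the catalytic subunit of Polycomb repressive complex 2 in dividing cells, was at 10.03, 10.16 and 10.09 without doxycycline, against 9.75, 9.99 and 9.91 with it. The groups did not overlap in either gene, and the log2 differences were 0.26 (SE 0.09, limma adjusted p = 0.307) and 0.21 (SE 0.08, limma adjusted p = 0.389). EZH1, the paralog of EZH2 found in resting cells, was at 8.33, 8.39 and 8.27 without doxycycline, against 8.39, 8.42 and 8.39 with it, with overlap and a log2 difference of -0.07. KDM6A, the X-linked relative of KDM6B, differed by -0.04 (-0.19 to 0.10), and the Polycomb chromobox genes CBX2, CBX6 and CBX7 by 0.15, -0.0078 and 0.08.

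NSD2, which dimethylates H3K36, had the smallest unadjusted p of the enzymes that act on H3K36, H3K79 or H4K20 (0.011). It was at 8.30, 8.37 and 8.31 without doxycycline, against 8.06, 8.15 and 8.10 with it, tight groups that lay apart, with a log2 difference of 0.22 (SE 0.06, limma adjusted p = 0.243). Its paralog NSD3 had a difference of the other sign, at 9.15, 9.12 and 9.19 without doxycycline, against 9.25, 9.34 and 9.20 with it and a log2 difference of -0.11 (SE 0.07), also without overlap. NSD1, SETD2, KDM2A and KDM2B differed by -0.05, 0.07, 0.06 and 0.01, each with an interval that includes 0.

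KMT5A, which places the single methyl group on lysine 20 of histone H4 and is known to vary through the cell cycle, was at 6.30, 6.19 and 6.21 without doxycycline, against 6.15, 6.01 and 5.98 with it. KMT5B, which adds the further methyl groups, was at 8.68, 8.55 and 8.68 without doxycycline, against 8.78, 8.72 and 8.70 with it. The groups lay apart in both, in opposite directions, with log2 differences of 0.19 (SE 0.08) and -0.10 (SE 0.07) and limma adjusted p-values of 0.392 and 0.607. KMT5C differed by 0.11. Of the 6 H3K36 genes and the 3 on H4K20, 0 were called by limma, and by unadjusted p 1 of each list was higher and 0 were lower.

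EZH2, NSD2, KMT5A and DNMT1 are known to be more abundant in dividing cells. In the same arrays all 19 measured genes of a list of 22 mitosis genes had positive differences, with a median of 0.47, and 7 of them were called higher and 0 lower by limma. Of all named genes, 0.43% were called higher and 0.134% lower by the same rule. The 4 enzymes were picked from the higher members, and the mitosis list was added, with the values known. The list's part in the differences of the 4 enzymes was not tested. UHRF1, the partner that brings DNMT1 to replicating DNA, differed by 0.02 (-0.15 to 0.19).

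The DNA methylation enzymes had 0 called genes, while by unadjusted limma p 1 was higher and 1 lower. DNMT1, the maintenance methyltransferase, was at 10.62, 10.62 and 10.62 without doxycycline, against 10.40, 10.51 and 10.45 with it. The 3 arrays without doxycycline hardly differed, and all lay above the others, by 0.17 on average (SE 0.06, limma adjusted p = 0.348). The de novo enzymes DNMT3A and DNMT3B differed by -0.03 (-0.18 to 0.11) and 0.05 (-0.21 to 0.30).

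TET1, a dioxygenase that oxidises methylcytosine, was at 9.54, 9.57 and 9.59 without doxycycline, against 9.78, 9.72 and 9.79 with it, 2 tight groups with no overlap. Its log2 difference was -0.20 (SE 0.06, limma adjusted p = 0.266), while its other, much dimmer probe set differed by 0.03 (SE 0.17). TET2 differed by -0.02 (-0.17 to 0.13). Of the MBD genes apart from MBD6, MBD5 was at 8.05, 8.05 and 8.06 without doxycycline, against 8.21, 8.08 and 8.17 with it, groups apart by a narrow margin, and its log2 difference of -0.10 (SE 0.06) was not called. MBD1, MBD2 and MBD4 differed by 0.18 (-0.13 to 0.50), 0.02 (-0.17 to 0.21) and -0.0035 (-0.16 to 0.15). MBD4 is the glycosylase of the family, which repairs mismatches at methylated sites.

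Among 11 PRDM genes, 7 had positive and 4 negative differences, with a median of 0.06, and none was called. Below the median probe set lay 7 of the 11, among them PRDM9 and PRDM7, which are related to each other and known from germ cells. PRDM7 had the second-largest difference of the family, 0.34, with an SE of 0.19. Its values were 4.11, 3.38 and 3.50 without doxycycline, against 3.28, 3.38 and 3.30 with it, so replicate 1 without doxycycline stood far above every other array, and the difference was 0.12 without it. PRDM6 had the smallest p among those of negative sign, at 2.92, 3.05 and 2.86 without doxycycline, against 2.96, 3.22 and 3.00 with it, with overlap and a log2 difference of -0.12, and its other probe set differed by -0.15. The 2 bright genes with ubiquitous roles, PRDM4 and PRDM10, differed by 0.06 (-0.10 to 0.22) and 0.06 (-0.12 to 0.24).

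The SMYD genes and remaining SET-domain genes gave 4 positive and 5 negative differences, a median of -0.04 and 0 calls (by unadjusted limma p, 0 were higher and 1 was lower). SMYD5 was at 5.48, 5.45 and 5.48 without doxycycline, against 5.71, 5.55 and 5.70 with it, without overlap, at a log2 difference of -0.18 (SE 0.07, limma adjusted p = 0.364). SETD3, which is known to methylate a histidine of actin and not histones, was at 9.70, 9.67 and 9.69 without doxycycline, against 9.78, 9.85 and 9.82 with it. SETD5, whose loss is known to cause a neurodevelopmental disorder, was at 9.24, 9.20 and 9.21 without doxycycline, against 9.08, 9.16 and 8.95 with it. These were also groups apart, in opposite directions, with log2 differences of -0.13 and 0.16 and limma adjusted p-values of 0.452 and 0.471. The SETD5 difference was 0.10 without doxycycline replicate 3. SMYD1, SMYD2, SMYD3, SMYD4, SETD6 and SETD9 lay between -0.07 (SETD6) and 0.06 (SETD9). Next to JMJD8, the other JmjC proteins KDM8 and JMJD6 differed by 0.12 (-0.08 to 0.31) and -0.02. JMJD6, a nuclear hydroxylase of splicing factors, was at 6.33, 6.35 and 6.34 without doxycycline, against 6.31, 6.35 and 6.43 with it, with overlap.

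Genes that work with these enzymes were looked at in lists chosen by function. The counts in these lists stand beside 0.43% of all named genes called higher and 0.134% called lower by limma. At an unadjusted limma p below 0.05 the shares of all named genes were 7.57% and 6.87%. Of 17 Polycomb partners, 6 had positive and 11 negative differences, with a median of -0.05, 0 called by limma, and 2 higher, 1 lower by unadjusted p. PHF19, which guides Polycomb repressive complex 2 to H3K36-methylated chromatin, was at 7.29, 7.25 and 7.32 without doxycycline, against 6.84, 6.88 and 6.86 with it, groups far apart for their spread. Its log2 difference of 0.43 (SE 0.06) had a limma adjusted p of 0.0565, just outside the threshold. PCGF2, a subunit of Polycomb repressive complex 1 that is named here after its values were seen, was the other, with a difference of 0.31 (SE 0.07). RBBP7, a histone chaperone subunit, was the lower one, with a difference of -0.19 (SE 0.07). SUZ12, a core subunit beside EZH2, differed by 0.02 (-0.14 to 0.17), also named after its value was seen.

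Of 9 COMPASS partners, 6 were positive, with a median of 0.05, 0 called by limma, and 2 higher, 0 lower by unadjusted p. HCFC1, a host cell factor that tethers KMT2 and SETD1 complexes to promoters, was at 9.65, 9.66 and 9.60 without doxycycline, against 9.37, 9.25 and 9.31 with it, without overlap, at a log2 difference of 0.33 (SE 0.06, limma adjusted p = 0.127). RBBP5 of the same complexes was the other, with a difference of 0.18, named after its value was seen, and WDR82 differed by -0.04. The 9 H3K9 and HUSH partners had a median of 0.02, with differences of 0.14 for PPHLN1 and -0.17 for ZNF644, and 0 genes at an adjusted or an unadjusted limma p below 0.05. The 5 DNA methylation partners likewise had 0 at either limma threshold, with a median of -0.03, a difference of 0.03 for DNMT3L and -0.12 for ZBTB4. Of the 9 arginine methyltransferases, PRMT9 differed by -0.21 (SE 0.07) and PRMT5 by 0.09, with 0 called by limma and 0 higher and 1 lower at an unadjusted p.

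The cofactors of the enzymes were measured in part. Of 9 genes of the methyl donor cycle, which makes and recycles S-adenosylmethionine, 7 had negative differences, with a median of -0.05, 0 called by limma, and 0 higher, 2 lower by unadjusted p. AHCYL2, a relative of S-adenosylhomocysteine hydrolase, was at 5.88, 5.94 and 5.77 without doxycycline, against 6.10, 6.17 and 6.16 with it and a log2 difference of -0.28 (SE 0.07, limma adjusted p = 0.203). AMD1, which diverts S-adenosylmethionine to polyamine synthesis, was the other, with a difference of -0.24 (SE 0.07), named after its value was seen, and GNMT differed by 0.06. AHCY itself differed by -0.05 (-0.22 to 0.12). Of 5 genes around 2-oxoglutarate, the cosubstrate of JmjC and TET enzymes, D2HGDH, which oxidises the inhibitor D-2-hydroxyglutarate, differed by 0.25 (SE 0.08, limma adjusted p = 0.272) and IDH3A by -0.15, with 0 called by limma and 1 higher and 0 lower at an unadjusted p.

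The relatives of KDM4C, left out of the members, had 0 called genes by limma. Of the family of 5 genes, 3 were higher and 0 lower at an unadjusted limma p below 0.05: KDM4C, KDM4A and KDM4D. Of all named genes, 7.57% were higher by that rule. KDM4A, which acts on methylated H3K9 and H3K36, read 7.69, 7.44 and 7.76 without doxycycline, against 6.98, 7.01 and 7.26 with it, groups that did not overlap, with a log2 difference of 0.55 (SE 0.12, limma adjusted p = 0.146). KDM4D differed by 0.28 (SE 0.11), KDM4B by 0.05 and KDM4E by -0.09.

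**Figure D5:**
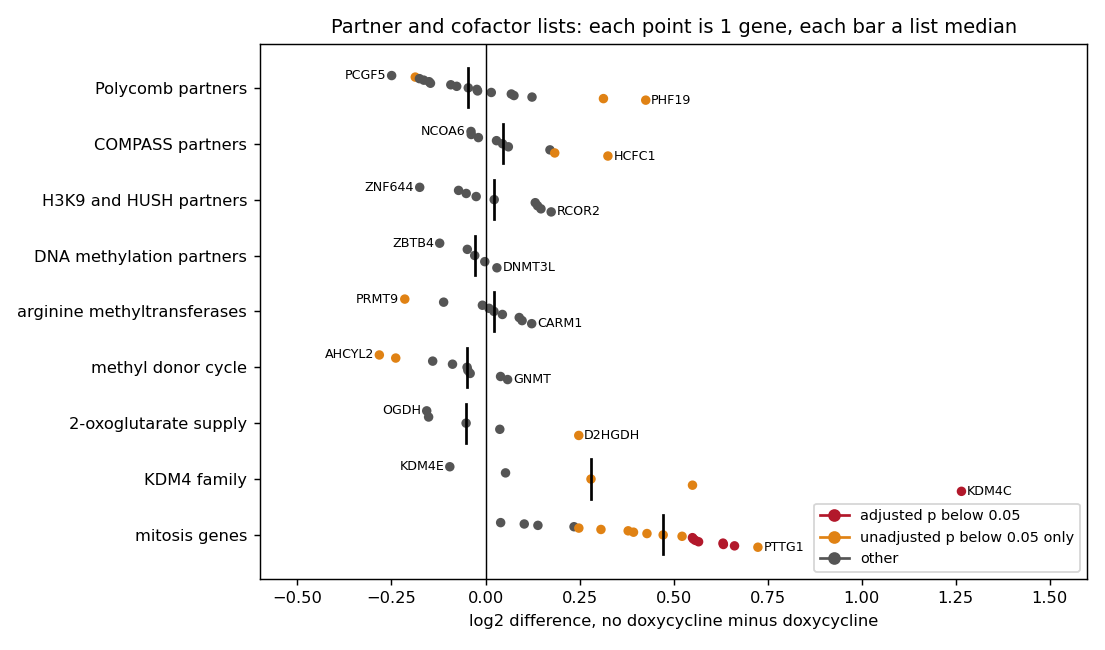
Log2 difference (x axis) of each measured gene in the partner and cofactor lists, the KDM4 family and the added mitosis list (y axis), with a bar at each list's median; colours give the test result. In the 7 partner and cofactor lists 0 genes were called and the medians lay between -0.05 and 0.05, while KDM4C and 7 mitosis genes were called.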

How the data were processed

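Total RNA of 6 cell samples, 3 without and 3 with doxycycline, was hybridised to Affymetrix whole-transcript arrays, per the labels' protocols. The authors deposited expression values made with Partek, per the submitters' processing notes. The version, background correction, normalization and summarization are not given in the sources used, nor is a build. That the scale is log2 was inferred from the range of the values, 2.12 to 14.3. The medians of the arrays lay within 3.94 to 3.96, so they were used as deposited. No scanner signals were used, so no detection limit can be set, and the number of arrays limits the precision.

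GEO's platform annotation gave 1 symbol to 16098 of the 53617 probe sets, several to 0 and none to 37519, which are unnamed here. Each of the 16098 gene identifiers was in the RefSeq table of GRCh38.p14, and 0 symbols changed. Genes of these families that the named probe sets do not hold are not analysed here.

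The comparison was no doxycycline minus doxycycline, by limma 3.58.1 in R 4.3.3 (lmFit, then eBayes) over all probe sets, with no covariate and no filter. Benjamini-Hochberg adjustment ran over all probe sets, and 0.05 was the threshold. The fit was tested on data with known answers, where most changes a little smaller than that of JMJD8 were not called. An uncalled gene may therefore still differ. P-values measure the spread between these samples, which may be technical, since no separate cultures are named.

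The members, lists and tests were chosen with earlier results of these data known. Per-array values are given for called members, the 8 smallest p-values per direction, the H3K9 methyltransferases and HP1 genes, and 1 per direction in each other role list. Members beyond that rule, PRDM7 with its arrays included, complete the lists, and LUM was singled out after its values were seen.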

Additional observations from a re-analysis of the deposited data

How the results depend on the processing

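The alternatives were trend with robust moderation, quantile normalization, scaling to the 75th percentile, leaving out dim probe sets, adjusting the same p-values over named genes alone, averaging the probe sets of a gene, the replicate number as a block, and leaving out each array. A refit on the named genes alone, which changes both the moderation and the adjustment, was added after seeing the data. The count of higher members past the adjusted threshold, 1 as reported, was 2 without dim probe sets, 2 when adjusted over named genes alone and 2 in the refit on named genes, where PRDM8 joined JMJD8 at 0.55 (limma adjusted p = 0.0495, 0.0408 and 0.0123). It was 0 with the replicate block. With 1 array left out it was 0 in each of the 6 fits, while over all probe sets 0 to 15 were then called, against 183. The count of lower members was 0 under every alternative listed. At an unadjusted p below 0.05, lower members numbered 7 in the refit on named genes, 2 to 4 with 1 array left out, and higher members 5 to 7. The median log2 difference of the members ran from 0.0102 to 0.0396 with 1 array left out.

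The replicate numbers were not treated as pairs in the main fit, and whether they pair the samples was not settled. The correlation of deviations between arrays of the same number was -0.012, -0.014 and 0.041, and arrays of other numbers reached 0.0435. With 3 arrays per group, these values cannot decide whether the samples are paired. With the replicate number as a block, limma called 0 of 53617 probe sets, KDM4C kept a log2 difference of 1.27 with an adjusted p of 0.118, and JMJD8 0.54 with an adjusted p of 0.203. With 1 array left out, KDM4C ran from 1.24 to 1.29 (limma adjusted p 0.0311 to 0.0696, above the threshold without doxycycline replicate 1 or 2 or no-doxycycline replicate 2 or 3) and JMJD8 from 0.50 to 0.57 (limma adjusted p 0.139 to 0.172). These fits have fewer residual degrees of freedom, and the cause of the lost calls was not tested. TET1 moved to -0.08 when its probe sets were averaged. Of the 36 members given with every array, 17 moved by over 1.5 times in at least 1 leave-one-out fit, and none of the 17 was called: CBX1, CBX3, DAXX, EHMT1, EHMT2, EZH1, JMJD6, KDM1B, KDM5C, KMT2C, KMT5B, NSD3, PRDM6, PRDM7, SETD5, SUV39H1 and SUV39H2. EHMT2 and JMJD6 changed sign without doxycycline replicate 3, and none did under the other alternatives.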
